A study of Homo sapiens with 10 samples.

Results

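The metallothionein genes MT1E, MT1F, MT1G, MT1L, MT1M, MT1X and MT2A and the gene of their regulator, MTF1, were followed in RNA-seq of a cisplatin-sensitive and a cisplatin-resistant bladder cancer cell line. These 8 genes were taken by name from the 61533 genes in the count tables, and all 8 were found. MT1E was called lower and MT1X higher in T24R2 than in T24, and MT1F and MT1M, the latter too sparse to be tested, were counted in T24 only. After scaling of the counts, the most abundant of them, MT2A, was lower and MTF1 higher in every T24R2 library. Both differences were under the minimum of 0.5 on the log2 scale, so neither was called. For MT2A the separation of the libraries depended on that scaling. The comparison was between 5 libraries of T24, an established human line from bladder cancer, and 5 libraries of T24R2, a single resistant line derived from T24 by stepwise culture with cisplatin. Both lines were grown in RPMI with 10% fetal bovine serum and 1% penicillin/streptomycin and collected at confluence on day 3. According to the methods of the study T24R2 is kept in cisplatin, whereas the sample labels give the same drug-free medium for both lines, so line and exposure to the drug cannot be told apart. Nothing states that the replicates were separate cultures, so the p-values measure the spread between these libraries, which may be technical.

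Metallothioneins are very small proteins in which cysteines make up a large part of the chain. Their thiol groups hold zinc and copper in the resting cell and can also bind cadmium and platinum, and for this reason the proteins have long been studied in tumor cells exposed to cisplatin. MTF1 is a zinc finger transcription factor that senses free zinc and binds metal response elements (MREs) in the promoters of metallothionein genes and of zinc exporter genes. The MT1 to MT4 genes of humans lie together in one cluster on the long arm of chromosome 16.

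The promoter sequences are shown because MTF1 acts through short elements in promoters. They cover the 250 bases before the start of the gene on the strand of the gene, come from the RefSeq promoter table on GRCh38.p14, and run 5′ to 3′ with matches to TGCACNC or TGCGCNC on either strand in capitals. The MT2A window is chr16:56608334-56608583 and the MT1X window chr16:56682220-56682469, both on the plus strand.
MT2A promoter: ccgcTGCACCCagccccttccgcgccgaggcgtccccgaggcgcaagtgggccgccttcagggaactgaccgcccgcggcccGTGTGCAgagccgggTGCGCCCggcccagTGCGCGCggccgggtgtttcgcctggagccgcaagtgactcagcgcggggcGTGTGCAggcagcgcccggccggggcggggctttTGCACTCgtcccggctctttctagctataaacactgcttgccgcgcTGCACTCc
MT1X promoter: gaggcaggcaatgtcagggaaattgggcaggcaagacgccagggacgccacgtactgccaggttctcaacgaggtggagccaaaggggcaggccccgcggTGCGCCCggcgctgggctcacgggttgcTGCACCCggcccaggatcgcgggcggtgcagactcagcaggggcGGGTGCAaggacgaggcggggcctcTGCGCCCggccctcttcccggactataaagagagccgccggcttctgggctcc
The MT2A promoter held 7 matches, 5 on its own strand and 2 on the other, and the MT1X promoter held 4, of which 3 were on its own strand. Among metallothionein genes at 0 counts in every library, the promoter of MT1H held 8 matches and those of MT1B and MT4 held 3 each. The promoter of MTF1 (chr1:37859593-37859842, minus strand) held 0 matches. Among 35114 RefSeq promoter windows of the same length, 24.8% held at least 1 match, 0.37% at least 4 and 0.0313% at least 7. The antioxidant response element, searched as TGACNNNGC on both strands, was found 1 time in MT2A, 1 time in MT1X and 0 times in MTF1, and in 10.9% of all windows. A match describes these letters only and is not evidence that a factor binds there. The table matched 3 of the 8 genes, leaving out MT1E, MT1F, MT1G, MT1L and MT1M.

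The coding sequences are shown because the likeness of the family bears on how reads were counted. They were taken from hg38 with the exons of GENCODE release 44 and are written 5′ to 3′ with the cysteine codons in capitals.
MT2A: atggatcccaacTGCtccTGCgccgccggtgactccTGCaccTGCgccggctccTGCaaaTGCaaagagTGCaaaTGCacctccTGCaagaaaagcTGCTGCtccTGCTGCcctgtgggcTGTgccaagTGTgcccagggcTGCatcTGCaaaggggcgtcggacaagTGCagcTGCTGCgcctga
MT1E: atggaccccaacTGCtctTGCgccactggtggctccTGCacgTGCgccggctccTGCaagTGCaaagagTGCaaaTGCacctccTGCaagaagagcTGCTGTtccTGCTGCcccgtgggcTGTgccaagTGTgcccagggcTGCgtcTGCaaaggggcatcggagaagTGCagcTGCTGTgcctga
MT1X: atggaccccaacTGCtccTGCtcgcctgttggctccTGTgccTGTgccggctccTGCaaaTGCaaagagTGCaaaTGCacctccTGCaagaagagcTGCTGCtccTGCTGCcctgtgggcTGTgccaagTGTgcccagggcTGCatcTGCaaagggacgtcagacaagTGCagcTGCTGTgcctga
MT1F: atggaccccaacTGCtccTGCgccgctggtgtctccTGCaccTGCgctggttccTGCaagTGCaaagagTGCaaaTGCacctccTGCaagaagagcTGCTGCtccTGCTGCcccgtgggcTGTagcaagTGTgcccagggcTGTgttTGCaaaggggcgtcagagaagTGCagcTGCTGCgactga
MT1M: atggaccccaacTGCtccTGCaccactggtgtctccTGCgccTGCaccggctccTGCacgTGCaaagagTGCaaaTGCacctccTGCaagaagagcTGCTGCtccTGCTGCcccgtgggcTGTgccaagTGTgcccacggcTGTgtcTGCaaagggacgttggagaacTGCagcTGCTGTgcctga
Each of the 5 has 186 coding bases in 3 exons and 20 cysteine codons among 61 codons before the stop. MT1G has 189 coding bases, 62 codons and also 20 cysteine codons. Position by position, the 5 sequences were identical at 88.7% (MT1X and MT1F) to 92.5% of bases, the highest value being shared by MT2A with MT1X, MT2A with MT1E, and MT1E with MT1M. The authors counted only reads with a single place in the genome, so a read that lies wholly within a stretch common to several genes gives no count. Windows of 50 bases within an exon that occurred in an exon of another metallothionein gene or pseudogene made up 18.96% of MT1M, 14.4% of MT1G, 6.92% of MT1E, 4.62% of MT2A, 1.31% of MT1X and 0.06% of MT1F. Of the windows of 100 bases, which are shorter than the 150-base reads of the study, 0 in each gene did so. The exons were those of all annotated forms of a gene merged, 914 bases for MT2A against 401 in its coding transcript. Shares within the coding transcripts may therefore differ, and windows across splice junctions were not searched. Exons shorter than the window were left out of this count, and other parts of the genome were not searched.

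The tables hold raw fragment counts, and a T24 library held 9257843 to 10247941 of them, a T24R2 library 9591379 to 10840954. Replicates were distinct libraries, the chi-square of their counts being 2.01 to 7.04 times its degrees of freedom over 20 pairs within a line. Levels below are CPM (counts scaled to a common library size) computed with the TMM factors of edgeR, with the SD of 5 libraries. Of the 16181 genes that passed the count filter, 51.4% were called different between the lines with an adjusted p under 0.05 and a log2 fold change beyond 0.5 in either direction. T24R2 was higher for 24.9% and lower for 26.5% of the tested genes, and the CPM ranges of the lines did not overlap for 61.2%. Without the fold minimum, 75.5% passed. Of 15 urothelial markers 9 were tested and all 9 were lower in T24R2. KRT7 stood at 2242 CPM in T24 and 1370 in T24R2. KRT19, GATA3 and EPCAM had up to 2676, 241 and 53 counts in a T24 library but at most 3, 5 and 2 in any T24R2 library. They passed the count filter through T24 alone, so they had to be lower and add nothing to the count of 9. UPK1A, UPK1B, UPK3A, KRT5 and KRT20 had at most 7 counts in any library, and TP63, also not tested, at most 12. Among 6 markers of blood, endothelial and fibroblast cells, PTPRC, CD68, VWF and DCN had at most 17 counts, and COL1A1 (6.45 and 1.03 CPM) and PECAM1 (5.36 and 1.17 CPM) were lower in T24R2. The part of these differences in the results for the metallothioneins was not tested, and in bulk RNA fewer cells of a kind and less RNA per cell cannot be told apart.

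Of the 8 genes, 5 passed the filter, and of these 1 was called higher (MT1X) and 2 lower (MT1E and MT1F) in T24R2, against 24.9% and 26.5% of all genes. MT2A and MTF1 had an adjusted p under 0.05, as 75.5% of genes did, but fold changes below the minimum. The CPM ranges of the lines did not overlap for any of the 5 tested genes, beside 61.2% of all tested genes. Of the genes not tested, MT1M was also separate, with 0 counts throughout T24R2, and MT1G and MT1L overlapped. The filter asks for 10 counts in a library of median size, or 0.989 CPM, in 5 libraries. MT1F passed it through its 5 T24 libraries alone, so that it had to differ. Its call and its separate ranges therefore add nothing to these counts. MT1M reached the filter level in 4 T24 libraries and was left out.

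MT2A encodes metallothionein 2, the main isoform of most human tissues (ENSG00000125148.7, chr16:56608584-56609497, plus strand, hg38). It had 13238, 12453, 10961, 10996 and 11456 counts in T24 replicates 1 to 5 and 10603, 9545, 11898, 10148 and 9014 counts in T24R2 replicates 1 to 5. After scaling these were 1374, 1310.1, 1252, 1183 and 1237 CPM in T24 and 973, 827, 1142, 904 and 886 CPM in T24R2. With this TMM scaling every T24R2 library was below every T24 library. The highest T24R2 value, that of replicate 3, came close to the lowest of T24. The raw counts of the lines overlapped, and so did counts divided by the library totals alone. T24R2 replicate 3 had 11898 of 10037730 counts, and T24 replicate 4 had 10996 of 9803565. The mean was 1271 ± 73.2 CPM (SD, n = 5) for T24 and 947 ± 121 CPM (SD, n = 5) for T24R2, or 74.5% ± 9.51 of T24. The log2 fold change was -0.43 (SE 0.05; Benjamini-Hochberg adjusted p = 6.2e-09 in the quasi-likelihood test of edgeR), so MT2A was not called. The exact two-sided permutation test of these TMM-scaled CPM gave p = 0.00794, the smallest that 5 against 5 allows.

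MT1E, the second most abundant metallothionein here, lies downstream of MT2A in the cluster (ENSG00000169715.15, chr16:56625475-56627112, plus strand). Its T24 libraries had 1837, 1826, 1590, 1622 and 1629 counts and its T24R2 libraries 1114, 1190, 1198, 1230 and 1001 counts. No library of T24R2 reached the lowest count of T24. MT1E averaged 183 ± 8.16 CPM in T24 against 106 ± 6.57 CPM in T24R2 (SD, n = 5), which is 57.8% ± 3.59 of T24. It was called lower with a log2 fold change of -0.79 (SE 0.05, edgeR adjusted p = 1.3e-17).

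MT1X, at the far end of the cluster (ENSG00000187193.9, chr16:56682470-56684196, plus strand), moved the other way at a low level. Counts were 11, 17, 17, 15 and 12 in T24 and 48, 64, 49, 48 and 42 in T24R2. All T24R2 libraries were above all T24 libraries, and T24R2 replicate 2 was the highest. The mean rose from 1.56 ± 0.334 to 4.61 ± 0.564 CPM (SD, n = 5 each), or 296% ± 36.2 of T24, with a log2 fold change of 1.57 (SE 0.23, edgeR adjusted p = 1.4e-07). The gene ENSG00000259827.1 shares 165 of the 404 bases of the MT1X coding transcript (40.8%) on the same strand. Fragments in that stretch fit both genes and may have gone uncounted in both lines, so the level of MT1X may be underestimated. ENSG00000259827.1 itself had 0 counts in all libraries.

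MT1F, a further metallothionein gene of the cluster (ENSG00000198417.7, chr16:56657731-56660698, plus strand), had 26, 34, 20, 36 and 35 counts in T24 and 0 counts in each of the 5 T24R2 libraries. Its T24 level was 3.24 ± 0.709 CPM (SD, n = 5). Set against 3 counts per T24R2 library, or 0.277 CPM, it was at least 11.7-fold lower in T24R2. This limit covers counting error only.

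MT1M, next to MT1E in the cluster (ENSG00000205364.4, chr16:56632659-56633981, plus strand), showed the same split. Counts were 30, 15, 11, 6 and 19 in T24 and 0 in all 5 T24R2 libraries. The T24 libraries ran from 6 counts in replicate 4 to 30 in replicate 1, with a mean of 1.73 ± 0.928 CPM (SD, n = 5). Against the same limit of 3 counts per library MT1M was at least 6.2-fold lower in T24R2. It was not among the genes tested, and the exact two-sided permutation test of CPM gave p = 0.00794. In the fit without a count filter its adjusted p was 1.4e-15 (edgeR, 33622 genes).

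MT1G and MT1L could not be compared at this depth. MT1G, the only metallothionein gene of the cluster on the minus strand (ENSG00000125144.14, chr16:56666730-56668065), had 2, 4, 0, 0 and 0 counts in T24 and 0, 1, 0, 1 and 0 in T24R2 (exact two-sided permutation test of CPM, p = 0.444). MT1L (ENSG00000260549.3, chr16:56617428-56618830) had 1 count in T24 replicate 5 and 1 in T24R2 replicate 2, and 0 in the other libraries (exact two-sided permutation test, p = 1.0).

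**Figure D1:**
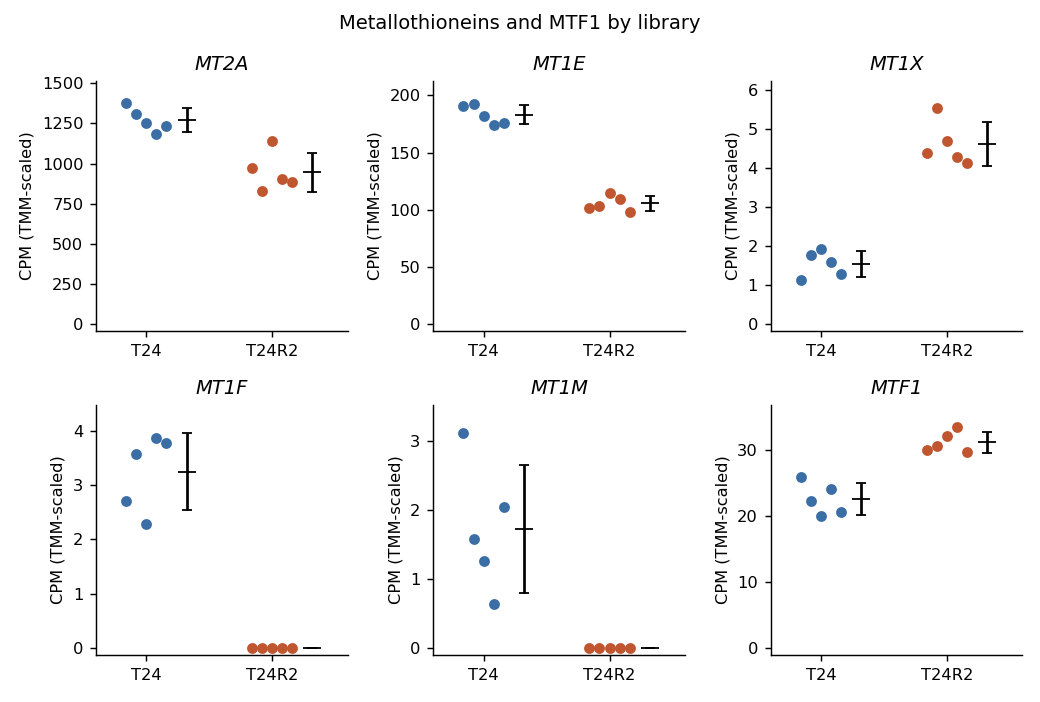
TMM-scaled CPM on linear axes that include 0, one panel per gene, for the 5 T24 (blue) and 5 T24R2 (orange) libraries in replicate order, with the mean and SD in black beside them. MT2A, MT1E, MT1F and MT1M lie lower and MT1X and MTF1 higher in T24R2, with no overlap between the lines in any of the 6 panels.

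MTF1 is on chromosome 1 (ENSG00000188786.10, chr1:37809574-37859592, minus strand), away from its targets. It had 249, 211, 175, 223 and 191 counts in T24 and 326, 352, 334, 375 and 302 counts in T24R2. The lowest T24R2 library (29.7 CPM) was above the highest T24 library (25.8 CPM). The means were 22.5 ± 2.41 and 31.1 ± 1.58 CPM (SD, n = 5 each), so that T24R2 stood at 138% ± 7.01 of T24. The log2 fold change was 0.46 (SE 0.08, edgeR adjusted p = 5.3e-06), just under the fold minimum, and MTF1 was not called. The exact two-sided permutation test gave p = 0.00794. It was called higher without scaling beyond the library total (0.63), with upper-quartile scaling (0.54) and without T24 replicate 1 (0.51). Those scalings also moved the median over all genes on the log2 scale, from 0.01 to 0.18 and 0.09, and the share of called genes that were higher from 48.5% to 60.3% and 53.9%.

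**Figure D2:**
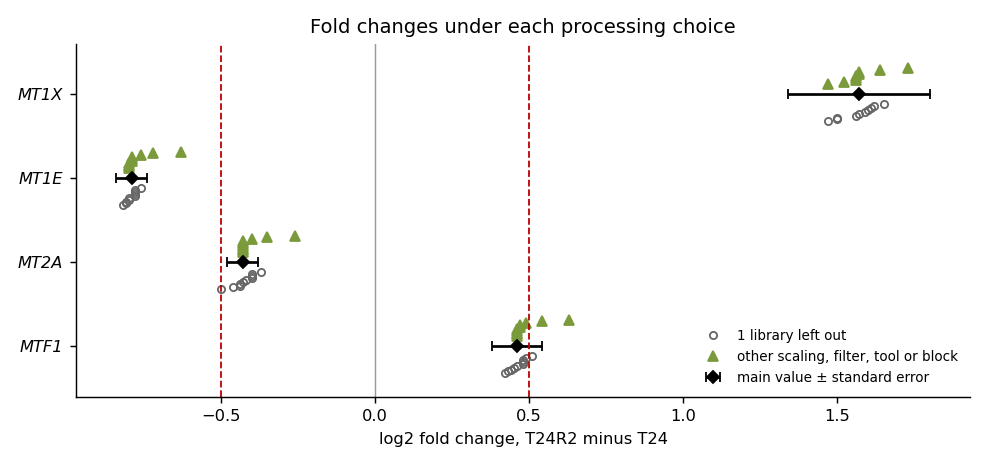
Log2 fold changes (T24R2 minus T24) of MTF1, MT2A, MT1E and MT1X, with the reported value and its standard error (diamond), 10 fits that each leave out 1 library (open circles) and fits with another scaling, filter, tool or replicate block (triangles). Dashed lines mark the fold minimum of 0.5, which MTF1 (0.46) and MT2A (-0.43) do not pass in the reported fit and MT1E (-0.79) and MT1X (1.57) do.

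Per kilobase of exon, the order of levels within T24 was MT2A (1391 CPM per kb), MT1E (174), MT1M (3.38), MTF1 (2.82), MT1F (1.75), MT1X (0.901), MT1G (0.167) and MT1L (0.0459). MT1M ranged from 1.26 to 6.09 CPM per kb between libraries and overlapped both MTF1 and MT1F, and MT1G overlapped MT1L, while the other neighbours in this order were separate in every library. Within T24R2 the order was MT2A (1036 CPM per kb), MT1E (100.5), MTF1 (3.9) and MT1X (2.67), with the remaining genes at or near 0. In both lines, therefore, MT2A and MT1E stood far above the rest. By this measure MT1X was below MT1F and MT1M in T24, and it was above them in T24R2, where both had 0 counts. The lengths are all annotated exon bases of a gene, 511 for MT1M, 1727 for MT1X and 1852 for MT1F. Their coding transcripts have 398, 404 and 425 bases, so the order of the sparse genes depends on the length used. In CPM, MT1X (1.56 ± 0.334) and MT1M (1.73 ± 0.928) overlapped in T24.

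The composition of the family differed between the lines. Over all 21 metallothionein genes and pseudogenes, summed counts were 12607 to 15145 in T24 and 10061 to 13150 in T24R2, or 0.138% and 0.111% of all counts. As summed CPM the family stood at 1461 ± 80.8 in T24 against 1057 ± 126 in T24R2 (SD, n = 5), given as a description with no test. MT2A made up 87.0% ± 0.273 of the summed counts in T24 and 89.4% ± 0.906 in T24R2, and MT1E 12.5% ± 0.272 and 10.1% ± 0.815. The share of MT1X went from 0.107% ± 0.0248 to 0.442% ± 0.0861, while MT1F (0.223% ± 0.056) and MT1M (0.116% ± 0.0575) had their share in T24 only.

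Whether the genes moved by different amounts was asked with ratios within each library, which do not depend on scaling. The log2 ratio of MT1E to MT2A averaged -2.8 ± 0.04 (SD) over the T24 and -3.16 ± 0.13 over the T24R2 libraries, so that T24R2 minus T24 was -0.36. For MT1X to MT2A it was -9.7 ± 0.36 and -7.68 ± 0.27, so that T24R2 minus T24 was 2.02. Each of the 2 ratios was separate between the lines in every library (exact two-sided permutation test, p = 0.00794, also after Benjamini-Hochberg adjustment over the 2 ratios). In these counts the difference between the lines was thus larger for MT1E than for MT2A, and MT1X rose relative to MT2A. Removal of duplicates may lower the counts of MT2A, and its effect on these ratios was not tested.

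The cluster runs from MT4 to MT1X (chr16:56565073-56684196) and holds 16 metallothionein genes and pseudogenes within 119.1 kb, 15 of them on the plus strand. Beyond the 7 metallothioneins described, the tables list 14 further metallothionein genes and pseudogenes, 9 in the cluster and 5 elsewhere. None of the 14 was tested. In all libraries 10 of them were at 0 counts, among them MT3, the brain form, and MT1A, MT1B and MT1H, and none of the others reached 10 counts in any library (highest 6). Genes that were at 0 in both lines therefore sat between genes that were counted.

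**Figure D3:**
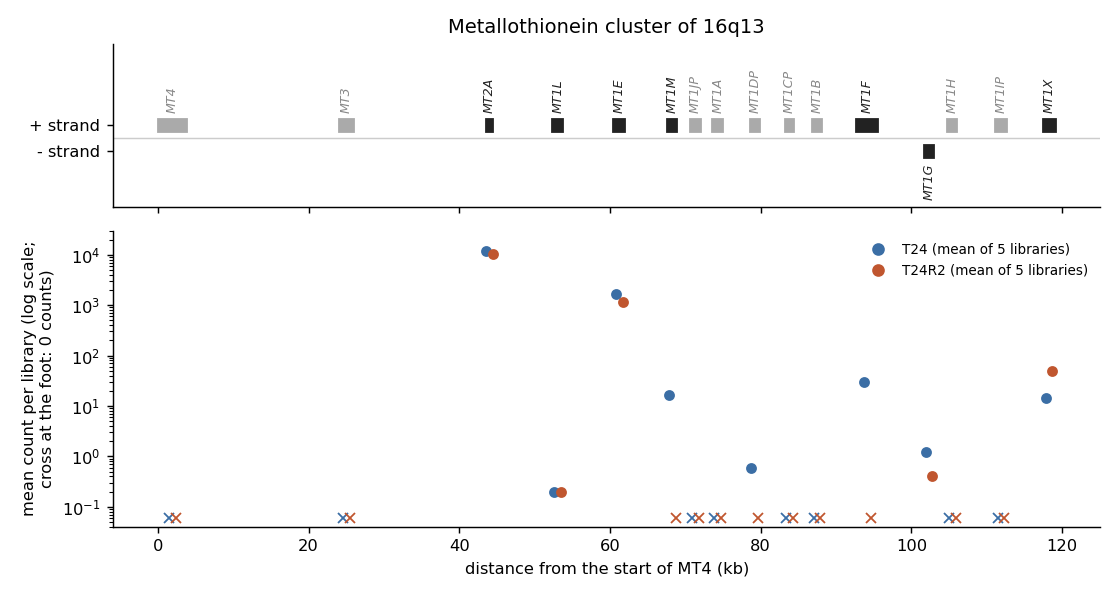
Map of the cluster by distance from the start of MT4 in kb, with genes above or below the line by strand (black, the genes described; grey, other metallothionein genes and pseudogenes), over the mean count per library of each gene on a log scale, with crosses for 0 counts. MT2A and MT1E stand highest in both lines, MT1M, MT1F and the pseudogene MT1DP (at most 2 counts in a T24 library) are at 0 counts in T24R2 only, and MT1X is the gene with the higher T24R2 mean.

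Around the cluster, 39 other genes overlapped a window that reached 500 kb to either side. Of these, 14 were tested, with 1 called higher, 3 lower and 10 not called, beside 24.9% and 26.5% of all genes. Their median log2 fold change was -0.12, beside 0.01 for all genes tested. On the MT4 side the nearest tested gene was BBS2, a component of the primary cilium's BBSome, at 65.2 ± 4.58 CPM in T24 and 65.5 ± 4.63 CPM in T24R2 (log2 fold change 0.01, SE 0.06, edgeR adjusted p = 0.92). On the MT1X side it was NUP93, a nuclear pore component, with a log2 fold change of -0.29 (edgeR adjusted p = 3.1e-06), below the fold minimum. HERPUD1, an endoplasmic reticulum stress gene, was higher (0.80) and CPNE2, a copine, was lower (-0.61). Both other calls were of sparse genes, ENSG00000279019 (-0.85, edgeR adjusted p = 0.04) and ENSG00000260823 (-0.74, edgeR adjusted p = 0.049), with at most 22 and 18 counts in a library, and the number of lower neighbours was 1 or 0 in several other fits. ENSG00000260823 lies within the cluster, right after MT2A on the opposite strand, and the lines overlapped there. No exon of the 8 genes shares bases with an annotated gene on the opposite strand.

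Other genes that are known to be regulated through MTF1 were called in both directions. Of 6 listed, 5 were tested, with 2 higher, 1 lower and 2 not called, beside 24.9% higher, 26.5% lower and 51.4% called either way among all genes (median log2 fold change 0.12, beside 0.01 for all genes). GCLC, the catalytic subunit of the enzyme that starts glutathione synthesis, rose from 15.6 ± 1.83 to 56.6 ± 1.15 CPM (SD, n = 5 each; log2 fold change 1.86, SE 0.08, edgeR adjusted p = 3.6e-23). SLC30A1, the zinc exporter of the plasma membrane, was at 43.7 ± 4.8 CPM in T24 and 62.6 ± 3.2 CPM in T24R2. Its log2 fold change of 0.52 (SE 0.07, edgeR adjusted p = 7.4e-09) was close to the minimum and was 0.49 without T24 replicate 1, 2 or 3, which ended the call. PGF, placental growth factor, fell from 41.9 ± 1.83 to 13.5 ± 1.52 CPM (log2 fold change -1.63, edgeR adjusted p = 6.1e-20). SLC39A10, a zinc importer that zinc-loaded MTF1 represses, had a log2 fold change of -0.32 (edgeR adjusted p = 0.00026) and the selenoprotein gene SELENOH one of 0.12 (edgeR adjusted p = 0.22), and neither was called. SLC40A1, the iron exporter ferroportin, was not tested, with at most 7 counts in a T24 library and 0 in every T24R2 library.

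Zinc transporters set the metal supply that MTF1 and metallothioneins respond to, with ZnT proteins (SLC30) moving zinc out of the cytosol and ZIP proteins (SLC39) moving it in. Of 24 listed, 17 were tested, with 5 called higher, 3 lower and 9 not called, of which 6 had an adjusted p under 0.05. Over all genes tested, 24.9% were called higher and 26.5% lower, so the numbers called are near the background. With no fold minimum, 6 of the 17 were higher and 8 lower at an adjusted p under 0.05, beside 75.5% of all genes in either direction. The median log2 fold change was -0.13, beside 0.01 for all genes. Among the 6 ZnT genes tested, 2 were higher and 0 lower, and among the 11 ZIP genes 3 were higher and 3 lower, and the split between the families was not tested.

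The largest of these differences was that of SLC39A8 (ZIP8), an importer of zinc, manganese and cadmium, which rose from 8.24 ± 1.33 to 30.9 ± 4.35 CPM (SD, n = 5 each; log2 fold change 1.90, SE 0.11, edgeR adjusted p = 3.9e-18). SLC30A6, a partner of ZnT5 in the secretory pathway, rose from 21.1 ± 1.39 to 42.8 ± 2.66 CPM (log2 fold change 1.02, edgeR adjusted p = 5.7e-15). SLC39A3, a plasma membrane importer, rose by 0.69 on the log2 scale, from 13.6 ± 1.57 to 22.0 ± 2.09 CPM (edgeR adjusted p = 1.3e-07). SLC39A1 (0.53, edgeR adjusted p = 0.022) was also called higher, but this was lost without T24 replicate 2 or 4 or T24R2 replicate 1 or 4 (0.46 to 0.49).

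Of the lower transporters, SLC39A13 (ZIP13), which releases zinc from vesicles, fell from 109 ± 5.31 to 57.7 ± 2.78 CPM (SD, n = 5 each; log2 fold change -0.91, SE 0.05, edgeR adjusted p = 2.4e-18). SLC39A7 (ZIP7), the zinc channel of the endoplasmic reticulum, fell from 96.0 ± 6.35 to 60.6 ± 4.57 CPM (log2 fold change -0.66, edgeR adjusted p = 4.2e-13), and was not called without scaling beyond the library total (-0.50). SLC39A4 (ZIP4), the importer mutated in acrodermatitis enteropathica, fell from 12.9 ± 1.26 to 6.36 ± 1.92 CPM (log2 fold change -1.02, edgeR adjusted p = 2.2e-07). For each of the called transporters the ranges of the lines were separate, beside 61.2% of all genes tested. They were picked by their calls in the same libraries, so this adds nothing to the calls. SLC39A14 (ZIP14), which carries zinc, iron and manganese, was also separate, at 91.0 ± 3.36 CPM in T24 against 68.9 ± 2.19 in T24R2, with a log2 fold change of -0.40 (edgeR adjusted p = 8.1e-09) that was not called. SLC30A9 and SLC39A9 had log2 fold changes of 0.03 and 0.01 and overlapped between the lines.

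**Figure D4:**
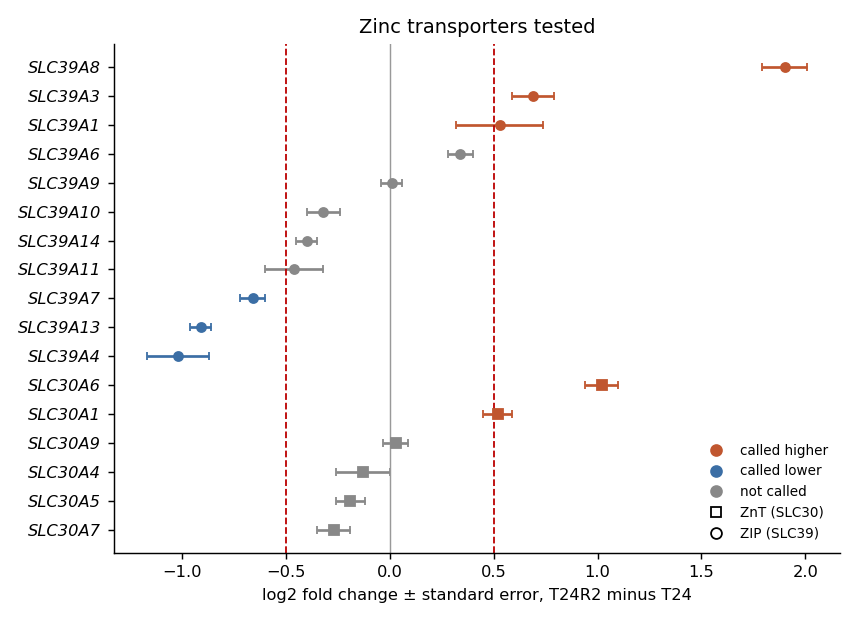
Log2 fold changes (T24R2 minus T24) with standard errors of the 17 zinc transporters tested, ZnT (SLC30) as squares and ZIP (SLC39) as circles, in orange where called higher, blue where called lower and grey where not called. Dashed lines mark the fold minimum of 0.5, and SLC39A8 at 1.90 stands farthest from 0.

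Profiles most like those of MT2A and MTF1 were sought among the 6531 genes whose mean level was 32 CPM or more. MT2A was 1 of these and was compared with the other 6530, whereas MTF1 itself, at 22.5 and 31.1 CPM, was below that level. The measure was the distance of log2(CPM + 1) profiles over the 10 libraries, each taken relative to its T24 mean. Nearest to MT2A were MT-CO2, a mitochondrially encoded subunit of cytochrome c oxidase (distance 0.19), GRN, the gene of progranulin (0.199), and PDLIM1, a PDZ and LIM domain protein (0.234), with log2 fold changes of -0.45, -0.42 and -0.46. Nearest to MTF1 were RNF34, a ubiquitin ligase (0.165), PSMG2, a proteasome assembly chaperone (0.19), and MRPL9, a mitochondrial ribosomal protein (0.195), with log2 fold changes of 0.50, 0.47 and 0.43. These distances are a description over libraries that share depth and scaling.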

How the data were processed

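RNA-seq of T24 and T24R2, with 5 libraries each, was analysed from deposited raw fragment counts per gene, made by the authors with STAR 2.7.0 on hg38, SAMtools 1.10 (unique reads without duplicates) and featureCounts 2.0.1 (strand option 1, GENCODE release 39). Removal of duplicates may lower the counts of short abundant transcripts such as MT2A, and reads that lie wholly within a stretch shared by family members are left uncounted.

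The lines were compared with edgeR 4.0.16 in R 4.3.3 (filterByExpr with a minimum count of 10, TMM, glmQLFit and glmQLFTest, Benjamini-Hochberg adjustment over 16181 genes). Genes were called at adjusted p under 0.05 and log2 fold change beyond 0.5 either way. The common biological coefficient of variation was 6.61%. The fits were tested on simulated data. Exact permutation tests of CPM and sequence searches were run in SciPy 1.17.1, pandas 2.3.3 and numpy 2.4.6 (Python 3.11.15), with matplotlib 3.10.9 for plots. Groups and replicate numbers came from the sample labels.

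Alternatives were other scalings, limma-voom (limma 3.58.1), DESeq2 1.42.0 with unshrunken, normal-shrunken and apeglm-shrunken (apeglm 1.24.0) fold changes, other filters, thresholds and windows, a replicate block, and leaving out each library. The genes described and the lists were chosen with earlier results of these data known. Named genes were the 8 members, called zinc transporters, the 6 zinc transporters with the smallest adjusted p, 6 known MTF1 targets, the nearest tested gene at either end of the cluster, the 4 called neighbours with the largest fold changes, and the 3 genes each with profiles most like MT2A and MTF1. Marker genes and SLC30A9, SLC39A9, MT1DP, MT4, MT3, MT1A, MT1B, MT1H and ENSG00000259827.1 were named outside that rule.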

Additional observations from a re-analysis of the deposited data

How the results depend on the processing

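The directions of MT2A, MT1E, MT1X and MTF1 held in every alternative that could be fitted. MT1F had 0 counts in every T24R2 library, so its direction could not change. Without a count filter, 3 of 8 genes were lower, MT1M having been added. The other counts that moved were as follows. The 8 genes gave 2 higher under no scaling beyond the library total, upper-quartile scaling and no fold minimum (MTF1 added), 3 lower with no fold minimum (MT2A added), 0 higher and 1 lower at a mean of at least 100 counts, where MT1X and MT1F are not tested, and 1 lower at a fold minimum of 1 on the log2 scale. Zinc transporters gave 8 lower with no fold minimum, and 2 higher and 1 lower at the minimum of 1. MTF1 targets gave 2 lower with no count filter or no fold minimum, and 1 higher at the minimum of 1. Neighbours of the cluster gave 2 higher and 0 lower without scaling, 2 higher and 1 lower with upper-quartile scaling, 1 lower by DESeq2 in each form and at a mean of 100 counts, 2 higher with no count filter, 2 higher and 5 lower with no fold minimum, 0 and 0 at the minimum of 1, 1 lower within 250 kb, and 3 higher and 5 lower within 1 Mb.

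When each library was left out in turn, the 8 genes gave 1 to 2 higher and 2 to 3 lower, zinc transporters 3 to 5 higher (3 without T24 replicate 2), MTF1 targets 1 to 2 higher (1 without T24 replicate 1, 2 or 3), and neighbours 1 to 2 higher (2 without T24 replicate 3) and 1 to 3 lower (1 without T24 replicate 1, 2 or 4 or T24R2 replicate 2). Where 3 of the 8 genes were lower, MT1M had passed the filter through its T24 libraries alone. MT1X was called in each of these fits. MT1F was called too, but with 0 counts in T24R2 it had to differ, so this adds nothing. MT2A ran from -0.50 to -0.37. The ratio differences ran from -0.40 to -0.32 for MT1E and from 1.89 to 2.11 for MT1X.

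Same-numbered libraries of the lines deviated together only weakly (correlations 0.00626 to 0.0635, the highest for replicate 1). The reported fits therefore used no pairing, but this does not settle whether the numbers mark shared handling. With the replicate block, the neighbours gave 1 lower, and exact paired sign-flip permutation tests of the ratio differences, -0.36 and 2.02, gave p = 0.0625, the smallest that 5 pairs allow. Counts near 0 limit MT1G, MT1L and, in T24R2, MT1F and MT1M.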
